A study of Mus musculus with 15 samples.

Results

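Lysosome genes were followed in mouse acute myeloid leukemia after its oncogenic NRAS was switched off, and most of them fell. The set holds 35 named genes of the lysosome: 9 membrane proteins, 7 glycosidases, 6 lipid enzymes and soluble cofactors, 10 cathepsins and other peptidases, and 3 transcription factors that act on lysosome genes. They were picked by gene symbol, with earlier results of these data known, and each was read by its brightest probe set over all arrays. Of the 35 genes, 34 were measured among 18193 genes on the array. For Cd63, a tetraspanin of late endosomes and lysosomes, the annotation used here pairs no probe set with that name alone.

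Lysosomes are acidic organelles in which hydrolases break down proteins, sugar chains and lipids that arrive by endocytosis, phagocytosis or autophagy. Myeloid cells hold many of them, and the azurophil granules of neutrophil precursors are related organelles that share several enzymes. The transcription factors TFEB, TFE3 and MITF bind an E-box with the letters CACGTG near many lysosome genes and are regulated by nutrient signalling at the lysosome surface.

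All groups were leukemia cells of genotype NRASG12V/Mll-AF9, taken from the spleens of SCID/Beige mice that had been given the cells through the tail vein. SCID/Beige mice lack most lymphocytes but keep other blood cells. RAS-ON is the vehicle-treated group at 0 h with 5 arrays, and RAS-OFF comprises 2 arrays each at 48, 60, 72, 84 and 96 h after doxycycline was started by intraperitoneal injection and in the drinking water, 10 arrays in all. Per the design text, doxycycline abolishes expression of NRASG12V in this model, so the comparison asks how expression differs without it. However, every RAS-OFF animal also received the drug, and vehicle arrays exist at 0 h only, with none at 48 to 96 h. Loss of NRASG12V, the drug and elapsed time therefore cannot be told apart, and this also holds for changes between the RAS-OFF times. The sources used here give neither the promoter that drives the transgene, nor the number of leukemia clones, nor the share of leukemic cells per sample.

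The brightest of 3 probe sets of mouse Nras was at 10.94 ± 0.18 (SD, n = 5) on the log2 intensity scale in RAS-ON and at 10.62 ± 0.17 (SD, n = 10) in RAS-OFF (adjusted p = 0.00725, limma). All 3 were lower in RAS-OFF, with log2 changes from -0.32 to -0.25, and the sources used here do not say whether they read the transgene. Array medians lay between 149.99 and 156.53 intensity units, and arrays of a group correlated at 0.987 to 0.997. RAS-ON replicates 1 to 3 differed from each other with an SD of 0.185 to 0.286 log2 units over genes, replicates 4 and 5 with one of 0.178, and the former from the latter with 0.247 to 0.343. Replicates 4 and 5 both lay outside the range of replicates 1 to 3 for 17 of the 34 lysosome genes (50%) and for 42.8% of all genes. Control probe sets at the 3-prime end of Gapdh exceeded those at the 5-prime end, a measure of RNA quality, by 1.22 log2 units in RAS-OFF 96 h replicate 1 and 0.10 to 0.35 in the other arrays. That array and the first arrays at 48 and 84 h stood apart in an earlier analysis of these data, and counts without all 3 are given below.

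Against RAS-ON, 23 of the 34 lysosome genes fell in RAS-OFF and 4 rose, while 7 did not pass the test. A gene counts as fallen or risen where limma's Benjamini-Hochberg adjusted p over all 18193 genes was below 0.05, for the mean of the 5 RAS-OFF times minus RAS-ON. The share that fell was 67.6%, beside 28.7 percent of all genes tested, and the share that rose was 11.8%, beside 20.1 percent. The median log2 change was -0.38 over the lysosome genes and -0.04 over all genes. In 15 lysosome genes (44.1%) all 10 RAS-OFF arrays lay below all 5 RAS-ON arrays, as they did for 12 percent of all genes. In 0 lysosome genes did all RAS-OFF arrays lie above all RAS-ON arrays, beside 9.36 percent of all genes. Counts were 24 lower and 3 higher without the 3 arrays named above, 24 and 3 against RAS-ON replicates 1 to 3 only, and 21 and 2 against replicates 4 and 5 only. The labels do not say that each replicate came from its own animal, so these p-values measure the spread between samples, which may in part be technical. In whole samples, fewer cells of a type and less RNA per cell cannot be told apart.

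**Figure D1:**
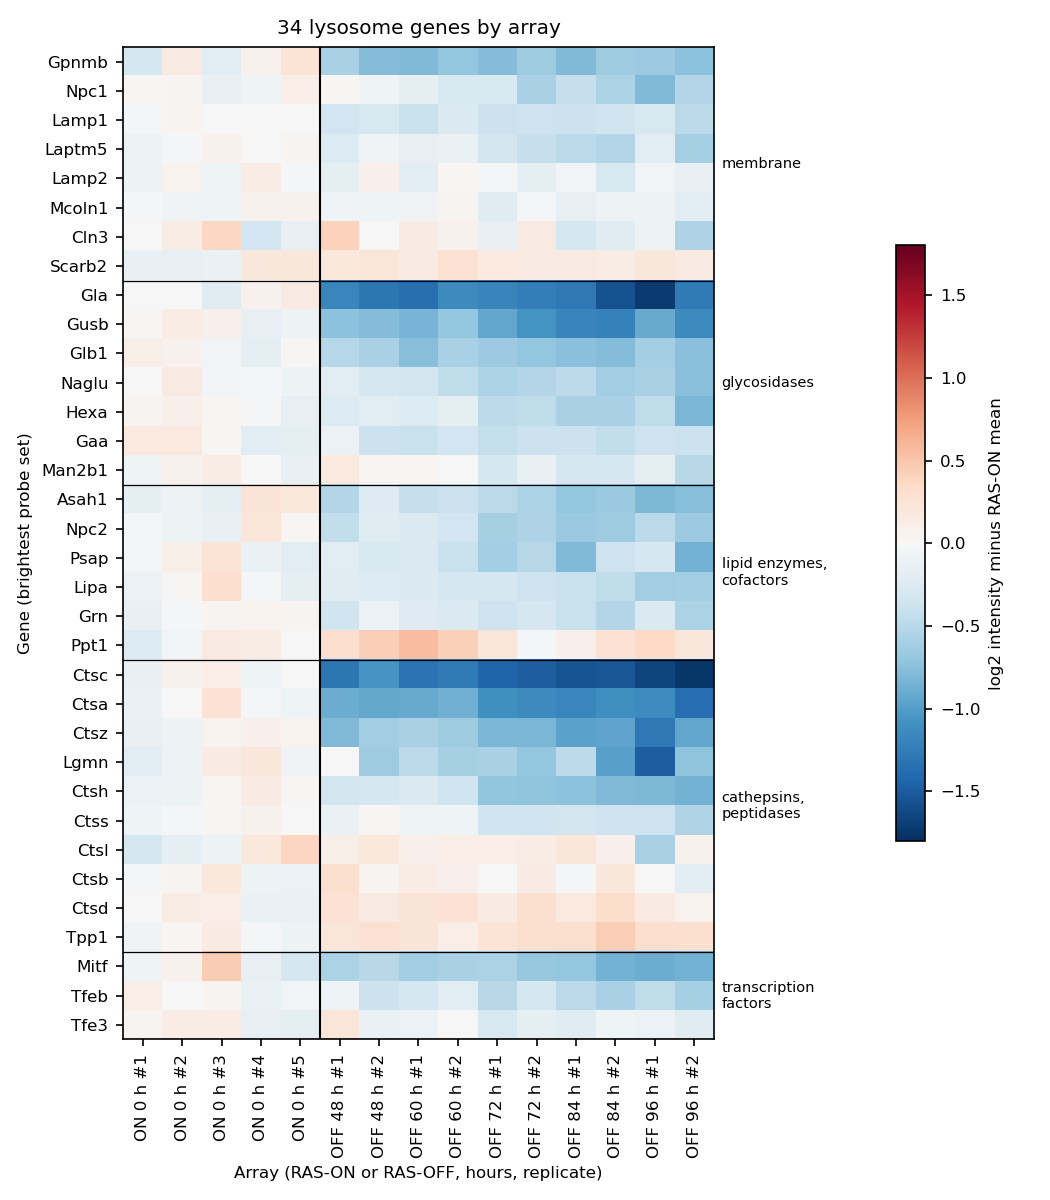
Each row is 1 of the 34 measured lysosome genes, grouped by role, and each column is 1 of the 15 arrays. Colour shows the log2 intensity minus the mean of the 5 RAS-ON arrays, blue for lower and red for higher. Blue fills most of the RAS-OFF columns for the glycosidases and for Ctsc, Ctsa and Ctsz, while Tpp1, Ctsd, Ppt1 and Scarb2 are pale red there.

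Promoters were searched for CACGTG, the palindromic core of the E-box bound by TFEB, TFE3 and MITF, in RefSeq windows from 250 bases before to 50 bases after a transcript start (GRCm38.p6). Windows were given for 31 of the 35 genes and not for Npc1, Asah1, Ctsb and Ctsh. The motif, which reads alike on both strands, was found in 11 of the 31 (35.5%), beside 8.09% of 27025 genes with a window. The longer TCACGTG, searched on both strands and including CACGTG, was in 10 of the 31 (32.3%), beside 4.29% of genes. Lysosome gene windows had a median GC content of 56.5% and all windows 52.7%. The upstream stretches that hold the motif are shown because they carry this shared letter pattern, 5′ to 3′ on the strand of the gene, with CACGTG in capitals.
Lamp1 (chr8:13159085-13159160, plus strand): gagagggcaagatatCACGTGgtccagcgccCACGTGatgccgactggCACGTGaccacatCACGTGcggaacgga
Cln3 (chr7:126583337-126583400, minus strand): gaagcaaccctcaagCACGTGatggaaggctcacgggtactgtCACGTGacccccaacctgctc
Mcoln1 (chr8:3500433-3500494, plus strand): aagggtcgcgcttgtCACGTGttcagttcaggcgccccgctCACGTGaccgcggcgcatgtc
Gla (chrX:134601179-134601247, minus strand): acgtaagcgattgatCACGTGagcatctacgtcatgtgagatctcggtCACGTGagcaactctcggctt
Glb1 (chr9:114401015-114401050, plus strand): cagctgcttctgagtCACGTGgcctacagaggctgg
Gaa (chr11:119267808-119267843, plus strand): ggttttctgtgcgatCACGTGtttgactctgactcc
Naglu (chr11:101070006-101070041, plus strand): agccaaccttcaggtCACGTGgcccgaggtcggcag
Lgmn (chr12:102439121-102439156, minus strand): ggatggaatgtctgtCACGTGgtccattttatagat
Ctsa (chr2:164833746-164833772, plus strand): caatgagcaaactgtCACGTGatgcag
Ctsd (chr7:142387905-142388077, minus strand): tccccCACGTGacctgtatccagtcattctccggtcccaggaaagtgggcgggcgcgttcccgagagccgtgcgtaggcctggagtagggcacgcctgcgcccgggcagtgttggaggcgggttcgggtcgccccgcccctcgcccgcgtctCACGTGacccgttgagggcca
Ctsl (chr13:64370736-64370770, minus strand): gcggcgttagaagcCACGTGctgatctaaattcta
Lamp1 held 4 copies upstream of its start, and Cln3, Mcoln1, Gla and Ctsd held 2 each. Of the 11 measured genes with the motif, 7 fell, 1 rose and 3 did not pass, with a median log2 change of -0.37. Of the 19 measured genes whose window lacked it, 13 fell, 3 rose and 3 did not pass, with a median of -0.38. Both counts are to be read beside the 28.7 percent of all genes that fell and the 20.1 percent that rose. A match describes the letters in a window and not the binding of a factor.

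The transcription factors themselves were lower or did not pass. Tfeb, the factor best known for driving lysosome genes, was at 9.68, 9.57, 9.61, 9.44 and 9.52 (log2 intensity) in RAS-ON replicates 1 to 5, and its 10 RAS-OFF arrays ran from 8.96 through a median of 9.14 to 9.49. Only RAS-OFF 48 h replicate 1, at 9.49, reached into the RAS-ON range. Tfeb fell by 0.39 ± 0.06 log2 units (SE of the fit, adjusted p = 0.000132). Mitf, a factor of pigment cells, mast cells and osteoclasts, was at 8.52, 8.67, 9.05, 8.45 and 8.30 in RAS-ON. In RAS-OFF it was between 7.71 and 8.09, with a median of 7.94. The groups did not overlap, and Mitf fell by 0.68 ± 0.09 (adjusted p = 2.56e-05), or by 0.44 with its pair of probe sets averaged. Tfe3, the close relative of Tfeb, differed by -0.11 ± 0.07 and did not pass (adjusted p = 0.235).

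Among the 8 measured membrane proteins, 4 (50%) fell, 1 (12.5%) rose and 3 did not pass, with a median log2 change of -0.20. The shares of all genes were 28.7 percent fallen and 20.1 percent risen. Lamp1, an abundant glycoprotein that lines the lysosomal membrane, was at 12.62, 12.70, 12.64, 12.63 and 12.64 in RAS-ON and ran from 12.16 through a median of 12.28 to 12.39 in RAS-OFF. Its groups did not overlap, the RAS-ON values were nearly equal, and it fell by 0.36 ± 0.05 (adjusted p = 1.74e-05). Gpnmb, a glycoprotein of macrophages and melanosomes, was dim, at 6.66, 7.14, 6.79, 7.06 and 7.23 in RAS-ON against 6.18 to 6.39 in RAS-OFF, with a median of 6.26. All its RAS-OFF arrays were lower, and it fell by 0.71 ± 0.09 (adjusted p = 7.81e-06), or by 0.39 with its probe sets averaged. Npc1, which carries cholesterol out of the lysosome, fell by 0.37 ± 0.07, and 8 of 10 RAS-OFF arrays were below every RAS-ON array. Laptm5, a lysosomal protein of blood cells, fell by 0.31 ± 0.06 in its brightest probe set and by 0.54 with all 5 averaged.

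Scarb2, the receptor that brings glucocerebrosidase to lysosomes, was at 10.81, 10.79 and 10.82 in RAS-ON replicates 1 to 3 and at 11.14 in both replicates 4 and 5. Its RAS-OFF arrays ran from 11.07 through a median of 11.11 to 11.22, so they lay above the first RAS-ON set and around the second. Its rise of 0.18 ± 0.07 (adjusted p = 0.0366) became -0.02 against replicates 4 and 5 only (adjusted p = 0.84), and its other probe set fell by 0.56 (adjusted p = 1.76e-05). Lamp2, which with Lamp1 makes up much of the membrane coat, did not pass in its brightest probe set (-0.09 ± 0.07, adjusted p = 0.263), while its other 3 probe sets fell, with changes of -0.55 to -0.22. Cln3, the protein missing in juvenile Batten disease, and Mcoln1, a calcium channel, differed by -0.05 ± 0.11 and -0.09 ± 0.05 and did not pass (adjusted p = 0.734 and 0.173).

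Of the 7 glycosidases, which cut sugars from glycoproteins, glycolipids and glycosaminoglycans, 6 (85.7%) fell, 0 rose and Man2b1 did not pass. Beside them, 28.7 percent of all genes fell and 20.1 percent rose. The median log2 change of the glycosidases was -0.48. Gla, the alpha-galactosidase deficient in Fabry disease, was at 8.59, 8.59, 8.38, 8.68 and 8.76 in RAS-ON and ran from 6.87 through a median of 7.32 to 7.45 in RAS-OFF. The highest RAS-OFF array stayed below the lowest RAS-ON array, and Gla fell by 1.33 ± 0.08 (adjusted p = 7.24e-09), so that RAS-ON was 2.51-fold higher. Its other probe sets changed less, by -0.44 and -0.09, of which the second did not pass, and the mean of all 3 fell by 0.62.

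Gusb, the beta-glucuronidase that trims glycosaminoglycans, was at 11.99, 12.10, 12.07, 11.82 and 11.88 in RAS-ON and at 10.76 to 11.27 in RAS-OFF, with a median of 11.06. Its groups were well separated, and it fell by 0.95 ± 0.06 (adjusted p = 1.05e-08), while its dimmer probe set fell by 1.48. Glb1, the beta-galactosidase also known as a stain for senescent cells, was at 9.38, 9.36, 9.23, 9.11 and 9.29 in RAS-ON and ran from 8.50 through 8.60 to 8.77 in RAS-OFF. No array of Glb1 overlapped, and it fell by 0.67 ± 0.06 (adjusted p = 1.58e-07). Naglu, of heparan sulfate breakdown, and Hexa, the hexosaminidase subunit deficient in Tay-Sachs disease, changed by -0.48 ± 0.06 and -0.42 ± 0.06, also without overlap. Gaa, which digests glycogen and is deficient in Pompe disease, was at 9.63, 9.63 and 9.47 in RAS-ON replicates 1 to 3 and at 9.25 and 9.30 in replicates 4 and 5, against 9.01 to 9.35 in RAS-OFF. Its change of -0.37 ± 0.07 (adjusted p = 0.000636) was -0.18 against replicates 4 and 5 only and did not pass there (adjusted p = 0.0634). Man2b1, an alpha-mannosidase, differed by -0.15 ± 0.07 and did not pass (adjusted p = 0.0749), and its other probe set rose by 0.56 (adjusted p = 0.0175).

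**Figure D2:**
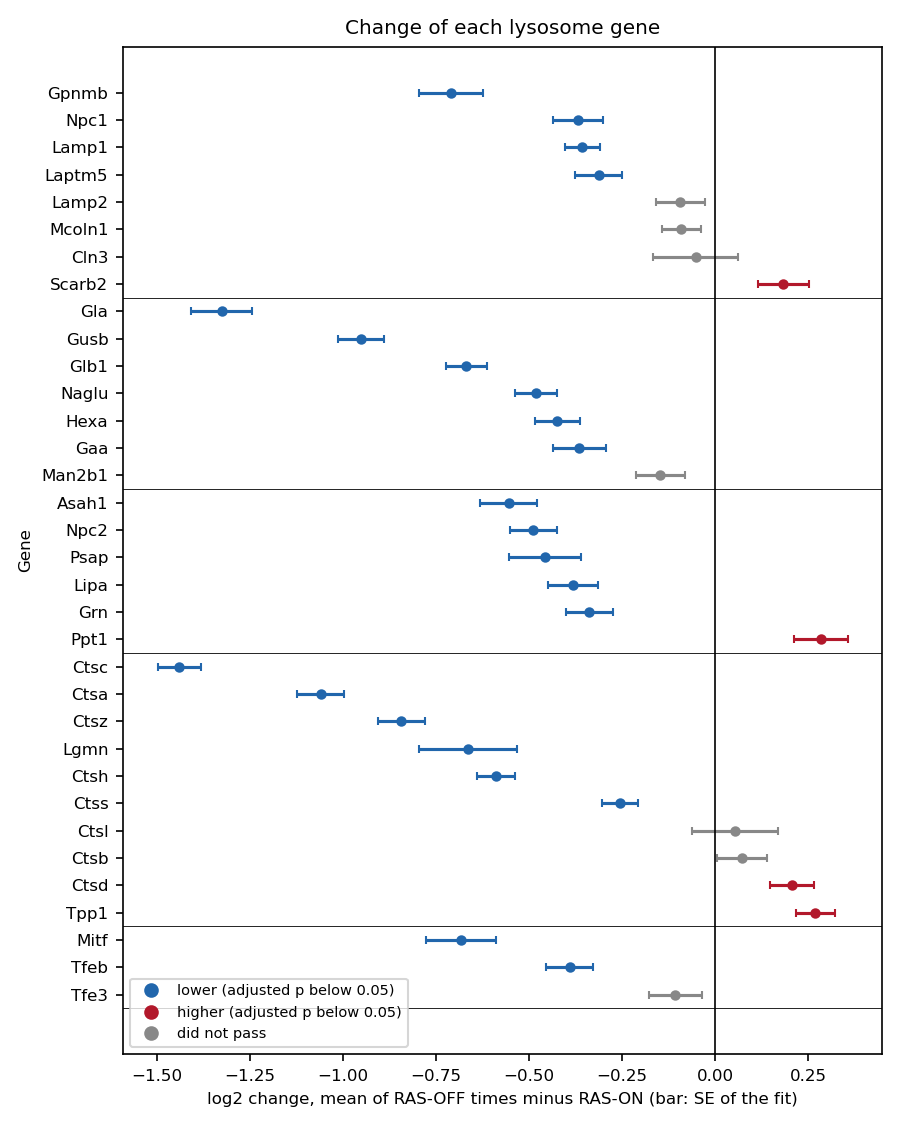
Points give the log2 change of each lysosome gene, mean of the RAS-OFF times minus RAS-ON, and bars give the SE of the fit. Blue genes were lower and red genes higher at an adjusted p below 0.05, and grey genes did not pass. Ctsc (-1.44) and Gla (-1.33) lie farthest to the left, and the 4 red genes lie between 0.18 and 0.28.

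Of the 6 lipid enzymes and soluble cofactors, 5 (83.3%) fell and 1 (16.7%) rose, with a median log2 change of -0.42. Over all genes 28.7 percent fell and 20.1 percent rose, the latter near the share here. Asah1, the acid ceramidase, was at 11.28, 11.37, 11.29, 11.68 and 11.65 in RAS-ON and ran from 10.64 through a median of 10.90 to 11.23 in RAS-OFF. Its groups did not overlap although RAS-ON replicates 4 and 5 were higher than the rest, and it fell by 0.55 ± 0.08 (adjusted p = 2.61e-05). Npc2, the soluble partner of Npc1 in cholesterol export, fell by 0.49 ± 0.06 and Lipa, the acid lipase that frees cholesterol from its esters, fell by 0.38 ± 0.07, both without overlap. Grn, a secreted and lysosomal progranulin, fell by 0.34 ± 0.06, or by 0.51 with its 3 probe sets averaged. Psap, the precursor of the saposins that present lipids to hydrolases, was at 13.58, 13.72, 13.85, 13.50 and 13.41 in RAS-ON and between 12.76 and 13.42 in RAS-OFF. Only the highest RAS-OFF array of Psap reached the RAS-ON range. Its change of -0.46 ± 0.10 (adjusted p = 0.00122) was -0.30 against RAS-ON replicates 4 and 5 only and did not pass there (adjusted p = 0.0745).

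Ppt1, a thioesterase that strips fatty acids from proteins, went the other way. It was at 11.32, 11.52, 11.71, 11.69 and 11.56 in RAS-ON and ran from 11.54 through a median of 11.84 to 12.12 in RAS-OFF, with 8 of 10 arrays above every RAS-ON array. The rise of 0.28 ± 0.07 (adjusted p = 0.00443) was 0.22 and did not pass against RAS-ON replicates 4 and 5 only (adjusted p = 0.0566). By time it passed at 48 h (0.38 ± 0.11) and 60 h (0.49 ± 0.11) and not at 72, 84 or 96 h. Its change at 96 h was still 0.28 ± 0.11 (adjusted p = 0.0595, limma). A trend of Ppt1 over the RAS-OFF times, -0.05 ± 0.03 per 12 h, did not pass (adjusted p = 0.279, limma).

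Of the 10 cathepsins and other peptidases, 6 (60%) fell, 2 (20%) rose and 2 did not pass, with a median log2 change of -0.42. Among all genes 28.7 percent fell and 20.1 percent rose, so the share that rose was near that of all genes. Ctsc, cathepsin C or dipeptidyl peptidase, which activates the serine proteases of neutrophil and mast cell granules, had the largest change of all the lysosome genes. It was at 12.33, 12.56, 12.60, 12.39 and 12.49 in RAS-ON and ran from 10.72 through a median of 11.01 to 11.42 in RAS-OFF. Every RAS-OFF array was far below the RAS-ON range, and Ctsc fell by 1.44 ± 0.06 (adjusted p = 1.17e-10), so that RAS-ON was 2.71-fold higher. All 3 of its probe sets fell, with changes from -1.44 to -1.09.

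Ctsa, the carboxypeptidase that also protects beta-galactosidase and neuraminidase, was at 12.03, 12.14, 12.41, 12.11 and 12.08 in RAS-ON and at 10.79 to 11.29 in RAS-OFF, with a median of 11.04. The groups were separate, and Ctsa fell by 1.06 ± 0.06 (adjusted p = 4.08e-09), although its other probe set fell by 0.24 and their mean by 0.65. Ctsz, a carboxypeptidase of myeloid cells, was at 13.22, 13.25, 13.42, 13.44 and 13.42 in RAS-ON and ran from 12.06 through 12.52 to 12.77 in RAS-OFF. It fell by 0.84 ± 0.06 (adjusted p = 5.09e-08) with no overlap, and its lowest probe set changed by -1.21. Ctsh, an aminopeptidase, fell by 0.59 ± 0.05 with no overlap. Lgmn, the asparagine-specific legumain that processes other cathepsins, fell by 0.66 ± 0.13, and its lowest array, at 8.89, was the 96 h array with the high Gapdh difference. Ctss, the cathepsin of antigen-presenting cells that trims the invariant chain, fell by 0.26 ± 0.05, and 7 of 10 RAS-OFF arrays were below every RAS-ON array.

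Tpp1, a tripeptidyl peptidase, was at 11.36, 11.45, 11.57, 11.40 and 11.33 in RAS-ON and ran from 11.54 through a median of 11.70 to 11.86 in RAS-OFF. All but 1 of its 10 RAS-OFF arrays lay above every RAS-ON array, and it rose by 0.27 ± 0.05 (adjusted p = 0.000587), or by 0.17 with its probe sets averaged. Ctsd, the main aspartic protease of lysosomes, was at 12.39, 12.51, 12.51, 12.26 and 12.26 in RAS-ON and ran from 12.45 through 12.59 to 12.71 in RAS-OFF, where 9 of 10 arrays were above the RAS-ON range. Its rise of 0.21 ± 0.06 (adjusted p = 0.00864) was 0.33 against RAS-ON replicates 4 and 5 only and 0.13 against replicates 1 to 3 only, where it did not pass (adjusted p = 0.106). Ctsb and Ctsl, the broadly expressed cysteine cathepsins B and L, differed by 0.07 ± 0.07 and 0.05 ± 0.11 and did not pass (adjusted p = 0.403 and 0.731). Ctsl split the RAS-ON group, with 10.65, 10.78 and 10.88 in replicates 1 to 3 and 11.15 and 11.35 in replicates 4 and 5, and its difference was -0.24 against the latter only. A dimmer probe set of Ctsb rose by 0.68 (adjusted p = 0.00103).

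**Figure D3:**
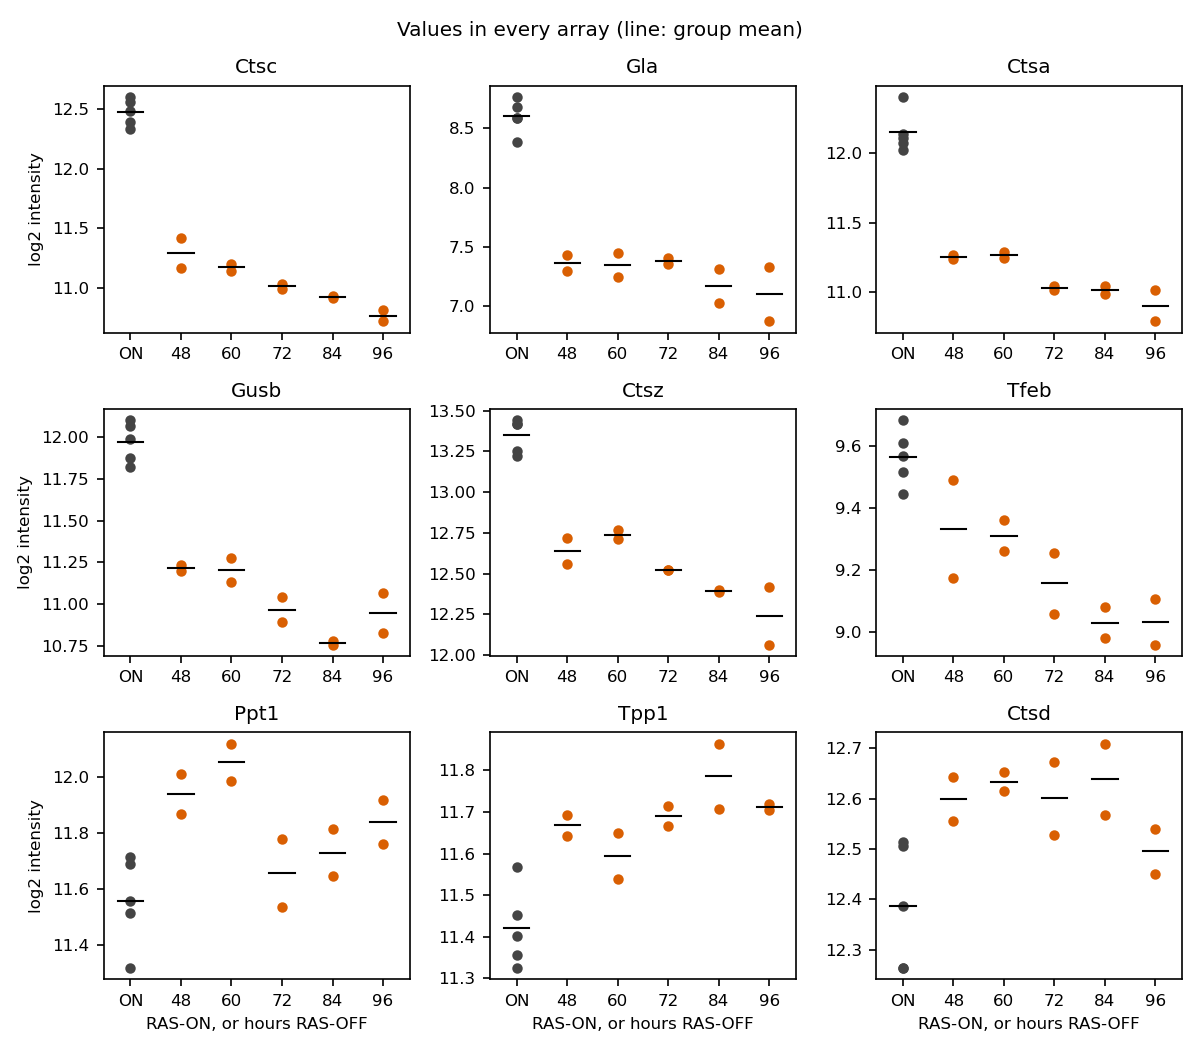
Each panel shows the log2 intensity of a lysosome gene in every array, with RAS-ON in grey, RAS-OFF in orange by hours of doxycycline, and a line at each group mean; the vertical axes differ and do not start at 0. Ctsc, Gla, Ctsa, Gusb and Ctsz show a gap between RAS-ON and every RAS-OFF array, while Ppt1, Tpp1 and Ctsd are higher with some overlap.

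Probe sets of a gene did not always move together. The lysosome genes had 76 probe sets in all, of which 46 fell and 7 rose, and 23 genes had more than 1. In 9 of these 23 genes every probe set passed in 1 direction, and in 1, Scarb2, probe sets passed in both. Shares over all probe sets of the array are not given here. These counts therefore describe only how the probe sets of a gene compare. Levels of different probe sets are not comparable, since each binds with its own strength.

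**Figure D4:**
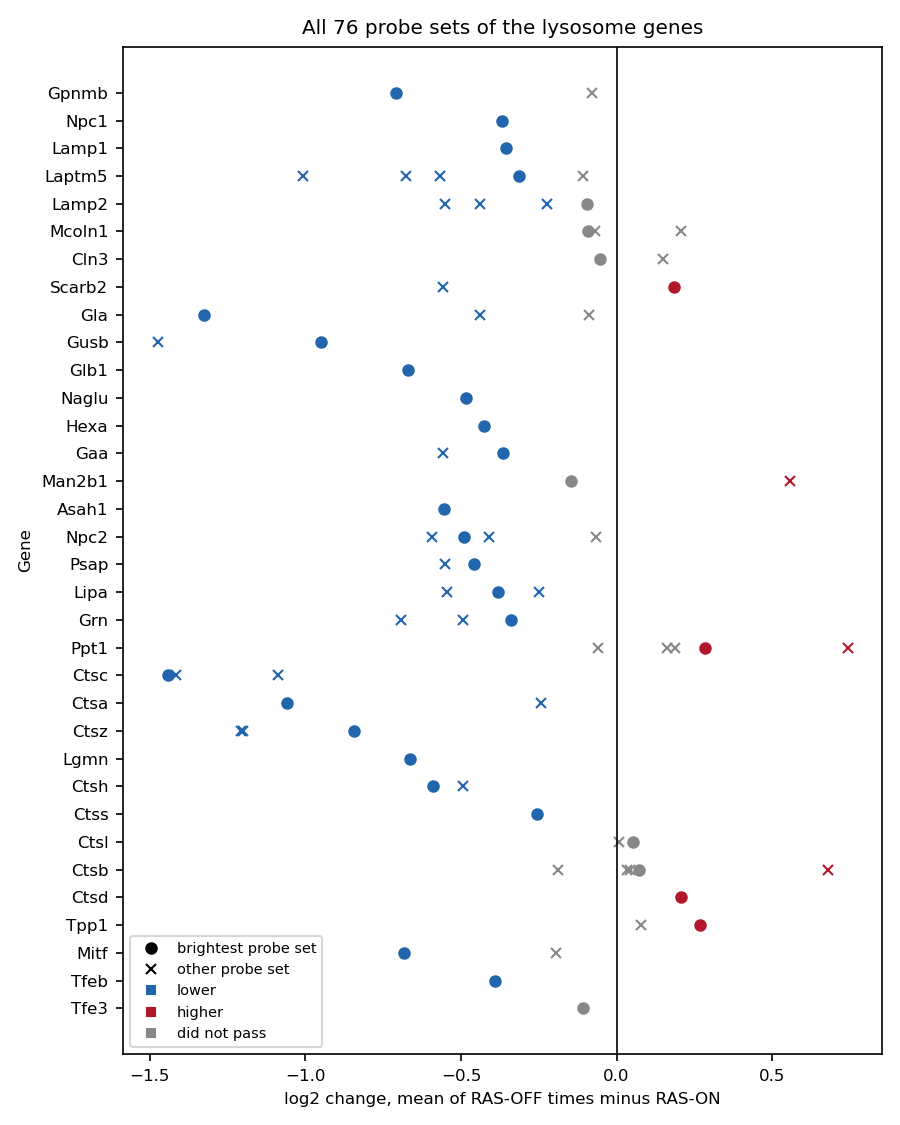
Each mark is 1 of the 76 probe sets of the lysosome genes, placed at its log2 change, mean of the RAS-OFF times minus RAS-ON; circles are the brightest probe sets and crosses the others. Blue marks fell, red marks rose and grey marks did not pass. The marks of Ctsc, Ctsz and Lipa all lie on the left, and those of Scarb2 lie on both sides of 0.

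By time, more lysosome genes were lower at the later harvests. At 48 h 13 were lower and 2 higher, beside 13.7 percent of all genes in each direction. At 60 h 14 were lower and 1 higher (14.2 and 11.5 percent of all genes), and at 72 h 23 were lower and 1 higher (18.3 and 13.4 percent). At 84 h 24 were lower and 2 higher (21.8 and 15 percent), and at 96 h 24 were lower and 1 higher (20.9 and 16.7 percent). Lamp1, Gpnmb, Gla, Glb1, Gusb, Naglu, Npc2, Asah1, Ctsa, Ctsc, Ctsh, Ctsz and Mitf were the 13 genes that were lower at 48 h, and all 13 were lower at every time. Another 11 were lower at 96 h and not at 48 h, among them Npc1, Hexa, Lgmn, Ctss and Tfeb. The median log2 change of the lysosome genes moved from -0.23 (48 h) and -0.27 (60 h) to -0.41 (72 h), -0.50 (84 h) and -0.55 (96 h). Counts at a single time rest on 2 arrays, and without the first 48 h array 8 genes were lower at 48 h, while without either 60 h array 9 were lower at 60 h. Cell type markers also moved with time. The median change of 10 monocyte and macrophage markers was -0.15, -0.33, -0.56, -0.77 and -0.97 over the 5 times in order. Over the same times 4, 4, 5, 6 and 7 of them were lower. The median of 10 late neutrophil markers was 0.58 at 48 h and 0.10 at 96 h, that of 6 azurophil granule markers -1.72 and -2.45, and that of 11 erythroid markers 1.43 and 1.76. Their part in the time course of the lysosome genes was not tested.

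The slope over the 5 RAS-OFF times, which does not use the RAS-ON level, was negative in 33 of the 34 lysosome genes, and 16 (47.1%) passed as falling, beside 8.75 percent of all genes. As rising, 0 passed by limma, beside 5 percent of all genes at the same adjusted threshold. At an unadjusted p below 0.05 in limma the count of rising lysosome genes was also 0, with no share of all genes counted at that threshold. The median slope was -0.08 log2 units per 12 h for the lysosome genes and 0.00 for all genes. Ctsh, which differed from RAS-ON by -0.33 at 48 h and -0.83 at 96 h, fell by 0.15 ± 0.02 per 12 h (adjusted p = 0.000443). Ctsc went from -1.18 to -1.71 over the same times, with a slope of -0.13 ± 0.02 (adjusted p = 0.00223). Npc1 differed by -0.03 at 48 h, which did not pass, and by -0.66 at 96 h, with a slope of -0.15 ± 0.03 (adjusted p = 0.00223). Ctss and Hexa had slopes of -0.11 ± 0.02 and -0.12 ± 0.02 (adjusted p = 0.00189 and 0.0047). Gla and Gpnmb, low from 48 h on, had slopes of -0.07 ± 0.03 and 0.00 ± 0.04 that did not pass (adjusted p = 0.201 and 0.992). The count of falling genes depended on single arrays: it was 7 without the first 48 h array, 9 without the second 60 h array, 8 without the second 96 h array and 5 without the 3 arrays that stood apart. The slopes of 3 genes, Hexa, Ctsh and Ctss, passed under all 25 alternative settings tried. Slopes of marker genes fell too: all 10 monocyte and macrophage slopes were negative, with 5 falling and a median of -0.18, and all 10 late neutrophil slopes were negative, with 6 falling and a median of -0.11. Of 6 azurophil granule markers 3 had falling slopes, of 14 red pulp macrophage markers 3, and of 11 erythroid markers 0 fell and 4 rose over time.

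**Figure D5:**
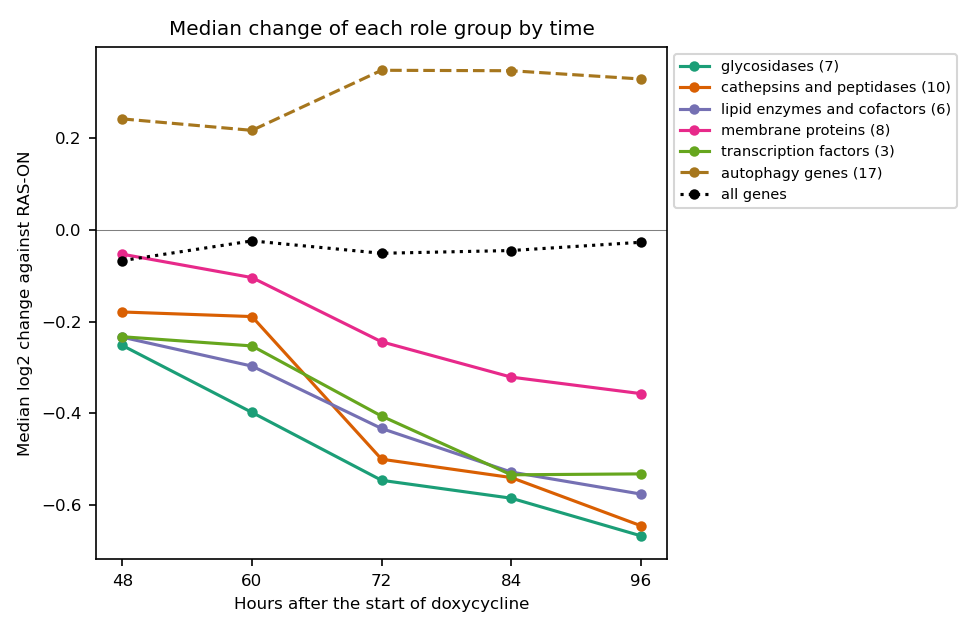
Lines give the median log2 change against RAS-ON at each RAS-OFF time (horizontal axis, hours of doxycycline) for each role group, for 17 autophagy genes and for all 18193 genes; the number of genes is in the key. The glycosidases go from -0.25 at 48 h to -0.67 at 96 h and the membrane proteins from -0.05 to -0.36, while all genes stay near 0 and the autophagy genes stay between 0.22 and 0.35.

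Further lysosome genes were counted from lists by role, to be read beside the 28.7 percent of all genes that fell and the 20.1 percent that rose. Of 26 other lysosomal hydrolases, 15 fell and 4 rose, with a median log2 change of -0.20. Neu1, the neuraminidase that works in a complex with Ctsa and Glb1, fell by 1.05 ± 0.07, and Ctse, an aspartic protease abundant in red cell precursors and stomach, rose by 1.09 ± 0.05. With probe sets averaged, Neu1 fell by 0.51 and Ctse rose by 0.43. Of 15 other membrane proteins of the lysosome, 8 fell and 2 rose (median -0.30), including changes of -1.08 ± 0.07 for the nucleoside transporter Slc29a3 and -1.03 ± 0.08 for the macrophage protein Cd68. Among 19 sorting genes 12 fell and 2 rose (median -0.19). Gnptab, a subunit of the enzyme that starts the mannose phosphate tag by which hydrolases are sorted to lysosomes, was between 9.98 and 10.18 in RAS-ON and between 8.62 and 9.33 in RAS-OFF, and fell by 1.10 ± 0.07. Nagpa, which completes the tag, fell by 0.99 ± 0.07, or by 0.38 with its probe sets averaged, and the groups of both genes were apart.

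Of 16 subunits of the V-ATPase, the proton pump that acidifies lysosomes, 8 fell and 4 (25%) rose, the latter near the share of all genes (median -0.16), with changes of -0.72 ± 0.09 for Atp6v1a and -0.68 ± 0.05 for Atp6v1c1 of the cytosolic sector. Of 17 nutrient-sensing and related regulators at the lysosome, 9 fell and 3 (17.6%) rose, the latter near the share of all genes (median -0.16). Tfec, the myeloid relative of Tfeb, was between 9.91 and 10.36 in RAS-ON and between 7.90 and 8.50 in RAS-OFF, a change of -1.91 ± 0.07, and Rragd, a Rag GTPase, rose by 1.01 ± 0.10, or by 0.35 with its probe sets averaged. Of 4 cystatins, inhibitors of cysteine cathepsins, 3 fell and 0 rose (median -0.62), with changes of -2.30 ± 0.09 for Cst7, which inhibits cathepsin C, and -0.97 ± 0.05 for Cstb. Autophagy genes differed in direction from these lists: of 17, 9 rose and 4 fell (median 0.30). Nbr1, a cargo receptor, rose by 0.73 ± 0.06, and Uvrag, of vesicle maturation, fell by 0.69 ± 0.07. All genes named from these lists had adjusted p-values below 0.05 in limma, and the 2 largest changes of each list were chosen for naming.

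Cell type markers moved in the same arrays. Their counts, here and in the next paragraph, are to be read beside the 28.7 percent of all genes that fell and the 20.1 percent that rose. Of 10 monocyte and macrophage markers, 6 fell and 0 rose (median -0.47), and their summed intensity was 32596 to 38829 in RAS-ON and 18574 to 26142 in RAS-OFF; F13a1 and Klf4 fell most, with changes of -2.21 ± 0.08 and -2.00 ± 0.12. Of 6 azurophil granule markers of promyelocytes, all 6 fell (median -2.04), with sums of 44192 to 60077 and 12366 to 18482. That list includes Ctsg, the lysosomal and granule protease cathepsin G, which fell by 2.66 ± 0.10, and also the cystatin Cst7. Of 14 red pulp macrophage markers, 10 rose and 1 fell (median 0.54; sums of 14487 to 19721 and 20690 to 27919), with rises of 1.21 ± 0.07 for Timd4 and 1.03 ± 0.06 for Slc40a1. Of 11 erythroid markers, all 11 rose (median 1.61; sums of 28795 to 34827 and 73020 to 93148), led by Epb42 and Car1.

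Of 10 late neutrophil markers, 7 rose and 0 fell (sums of 108357 to 127162 and 126169 to 162159), with Mmp8 and Cxcr2 changing most, by 2.16 ± 0.08 and 1.81 ± 0.10. Of 8 stroma and endothelium markers 6 rose and 1 fell (11359 to 12042 and 12796 to 18424), led by Cxcl12 and Stab2. Of 6 dendritic cell markers 4 rose and 0 fell, led by Flt3 and Zbtb46 (4097 to 6140 and 5016 to 6979). With probe sets averaged the rise of Cxcl12 was 0.95, not 1.58, and against RAS-ON replicates 4 and 5 only that of Flt3 was 0.37, not 0.73. The change of Zbtb46 was 0.68 (adjusted p = 0.0205), 0.40 without RAS-ON replicate 4 and 1.14 against replicates 4 and 5 only. Zbtb46 did not pass with probe sets averaged (0.20, adjusted p = 0.0973), with the first RAS-ON array left out (adjusted p = 0.0555), against replicates 1 to 3 only (0.37, adjusted p = 0.0723) or without the 3 arrays that stood apart (adjusted p = 0.0659). Among 5 B cell markers 4 fell and 1 rose (1927 to 2019 and 1197 to 1540), with changes of -1.41 ± 0.12 for Cd79b and -0.44 ± 0.08 for Cd22. The share of B cell markers that rose, 20%, was near the 20.1 percent of all genes. Whether leukemic or host cells carried these markers, and their part in the changes of the lysosome genes, was not tested.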

How the data were processed

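Amplified, biotin-labelled total RNA was read on Affymetrix mouse expression arrays. Per the submitters' processing notes, the authors used RMA to make the deposited intensity values, which are on a linear scale. Here log2 of each deposited value was taken. RMA gives arrays similar distributions, so a shift of most genes in 1 direction would not show. Of 45101 probe sets, 34945 carry 1 symbol, 932 several, 9160 none and 64 are controls. Each of 18193 genes was read by its brightest probe set over 15 arrays, with no filter on dim genes.

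Groups came from sample titles. Tests used limma 3.58.1 (R 4.3.3), with 6 group means, two-sided, Benjamini-Hochberg over all genes, and the code was tested on simulated data. SDs over RAS-OFF include differences between times. Precision is limited by the number of arrays. The lysosome genes, the lists, the alternatives and the rule for naming genes (all lysosome genes; per other list, the 2 with the largest change among those that passed) were chosen with earlier results of these data known. Alternatives were a filter on dim genes, other probe set rules, normalizations and fits, a replicate block, and arrays left out.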

Additional observations from a re-analysis of the deposited data

Results flagged for a closer look

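For 16 lysosome genes the change against RAS-ON differed between RAS-OFF times, since the slope over the 5 times passed limma's test (adjusted p below 0.05). All 16 were falling, 47.1% of the measured lysosome genes, beside 8.75 percent of all genes. Slopes in log2 units per 12 h were -0.18 for Lgmn, -0.15 for Npc1, -0.15 for Ctsh, -0.13 for Ctsc and -0.12 for Hexa. They were -0.12 for Man2b1, -0.12 for Ctsz, -0.11 for Asah1, -0.11 for Ctss, -0.10 for Naglu and -0.10 for Gusb. The shallowest were -0.10 for Ctsa, -0.091 for Lipa, -0.088 for Tfeb, -0.084 for Laptm5 and -0.084 for Npc2. Man2b1 is the gene of these that did not pass in the mean over all RAS-OFF times. Of the 16 slopes, those of Hexa, Ctsh and Ctss alone passed under all 25 alternative settings. The slope of Lgmn, the steepest, ran from -0.252 to -0.062 and did not pass in 10 settings. Its replicates 1 and 2 lay apart, with log2 intensities of 10.38 and 9.72 at 48 h and 8.89 and 9.63 at 96 h. Slopes of Npc2, Laptm5 and Lipa did not pass in 15, 13 and 12 settings. Among the 5 RAS-ON arrays, 0 lysosome genes had an array far from the others by Dixon's test. That test looks for a lone array and can miss a pair that lies apart together. Replicates 4 and 5 both lay outside the range of replicates 1 to 3 for 17 of the 34 genes (50%), near the 42.8% of all genes.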

How the results depend on the processing

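Under all 26 alternatives tried for RAS-OFF against RAS-ON, 21 of the 23 falls and 1 of the 4 rises (Tpp1) kept their side of the threshold, where Gpnmb, too dim for 1 of them, counts over the other 25. Leaving out each array in turn gave 23 to 24 lower, 3 to 4 higher and a median of -0.404 to -0.363. Against RAS-ON replicates 4 and 5 only, 2 genes were higher and Scarb2 (-0.019), Cln3 (0.196), Ctsl (-0.235) and Tfe3 (0.048) changed sign. With probe sets averaged, Scarb2 (-0.187), Cln3 (0.048), Mcoln1 (0.016) and Man2b1 (0.205) changed sign. With each array left out, Ctsl ran from -0.025 to 0.149, negative without RAS-ON replicate 1 or the second 96 h array, and Cln3 from -0.140 to 0.040, positive without RAS-ON replicate 3. The cause was not tested.

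Single times, leaving out each array in turn, gave 8 to 14 lower and 0 to 2 higher at 48 h, 9 to 16 and 0 to 2 at 60 h, 16 to 23 and 0 to 1 at 72 h, 20 to 24 and 0 to 2 at 84 h, and 20 to 24 and 0 to 2 at 96 h. The count higher at 60 h was 3 with array weights and 2 without the dimmest 40% of genes, with probe sets averaged, quantile normalization, trend and robust eBayes, a replicate block, or either RAS-ON set. At 72 h it was 2 with quantile normalization, the block or either RAS-ON set. At 96 h it was 2 without dim genes or with quantile normalization, and 3 with the block or RAS-ON replicates 1 to 3. Without the 3 arrays that stood apart it was 0 at 48 h, 1 at 84 h and 0 at 96 h.

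The falling slopes numbered 7 to 18 with each array left out, 9 with quantile normalization and 5 without the 3 arrays, and rising slopes 0. Slopes near 0 changed sign: with probe sets averaged, Mcoln1 (0.035), Gpnmb (0.001) and Ctsl (0.001); with quantile normalization, Scarb2 (0.002). With each array left out, the slope of Lamp2 ran from -0.047 to 0.008 and that of Gpnmb from -0.020 to 0.019, and without the 3 arrays that of Gpnmb was 0.019. Deviations from the group means correlated at -0.237 to 0.217 over 30 same-numbered pairs, 5 of them above 0.1. With 2 arrays per RAS-OFF time the deviations of a time mirror each other. This check therefore cannot settle whether replicate numbers pair the samples. With the replicate block 23 genes were lower and 3 higher, as Ctsd no longer passed (adjusted p = 0.14).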
